A study of Mus musculus with 2239 samples.

Results

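The 9 genes followed here encode products through which regulatory T cells (Tregs) are known to restrain immune responses or help tissue repair: Fgl2, Gzmb, Nt5e, Entpd1, Tgfb1, Penk, Ebi3, Areg and Il10. They were taken by name, as 9 of the 23725 gene rows of a table of single-cell counts. The cells were Tregs from male B6 animals, 7 months old, number not given, which carried a green fluorescent reporter of the transcription factor Foxp3. They were sorted as live cells positive for TCR beta, CD4 and the reporter. The tissue is labelled spleen, but the sample type has colon in its name too, and whether colon cells were loaded is not given. All came from 1 library made with inDrops, a droplet method that marks each captured mRNA with a unique molecular identifier (UMI). The library has no replicate and no second condition, so no test was possible. Every interval below is a 95% interval for counting error only.

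Tregs act on other cells by several routes. Entpd1 and Nt5e encode CD39 and CD73, surface enzymes that work in series: CD39 cuts extracellular ATP to AMP and CD73 turns AMP into adenosine, which damps T cells through the adenosine receptor Adora2a. Fgl2 encodes a secreted fibrinogen-like protein that acts on antigen-presenting cells, and Gzmb encodes granzyme B, a protease delivered from cytotoxic granules. Tgfb1, Il10 and Ebi3 encode cytokines or cytokine subunits, Ebi3 being shared by interleukin 27 and interleukin 35. Penk encodes the precursor of enkephalins, opioid peptides, and Areg encodes amphiregulin, a growth factor of the epidermal growth factor family tied to repair. Klrg1, Icos and Maf, used here to mark activated cells, encode a surface receptor of differentiated T cells, a costimulatory receptor and a transcription factor.

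Cells with at least 500 UMIs made up 91.8% of the 2239 cells, and all values below are for them unless stated. Their depth ran from 500 to 4329 UMIs, with a mean of 1049.3 and 2156277 UMIs in all. Foxp3 had a UMI in 595 of them (29.0%, exact binomial interval 27 to 31), Cd4 in 19.5% and Cd3e in 10.9%. Some kept cells held markers of other cell types: 91 had at least 5 UMIs of a B cell list, 39 at least 5 of a myeloid list and 17 at least 3 of a list for NK, ILC and CD8 T cells, together 6.28% of the cells. Just under these limits, with 1 UMI fewer, lay 1, 10 and 16 cells. Foxp3 had a UMI in 3.10% of the 6.28% and in 30.7% of the rest. These cells are given no cell type name, and values that moved most without them are given both ways. Of 8 epithelial and stromal markers 4 had no UMI (Krt8, Krt18, Krt20 and Col3a1). In pooled counts, fewer cells that express a gene and less RNA per cell cannot be told apart.

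Promoter sequence is shown for Fgl2 and Gzmb because only their windows, among those searched for the 9 genes, held the AP-1 letters described next. Of the 9 genes, 7 had an entry in the RefSeq promoter table for GRCm38.p6, all but Penk and Il10. They had 8 windows of 250 bases before a transcript start. The letters TGANTCA, a binding motif of the AP-1 family read on both strands, stood in 2 of the 8 windows, those of Fgl2 and Gzmb, and in 6.75% of all 32851 windows of that length. TGCTGAC, a half-site of Maf factors, stood in none of the 8 and in 3.81% of all windows. The stretches from position -150 to -10 of each RefSeq start are given 5′ to 3′ on the gene's strand, with the AP-1 letters in capitals. They are chr5:21372523-21372663 on the plus strand and chr14:56262344-56262484 on the minus strand.
Fgl2: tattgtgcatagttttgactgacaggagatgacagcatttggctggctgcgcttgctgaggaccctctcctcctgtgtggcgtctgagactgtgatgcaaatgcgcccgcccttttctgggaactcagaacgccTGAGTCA
Gzmb: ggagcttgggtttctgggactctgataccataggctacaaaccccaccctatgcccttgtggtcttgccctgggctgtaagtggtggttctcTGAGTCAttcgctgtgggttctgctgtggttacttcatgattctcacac
The match lies at -16 to -10 in Fgl2 and at -58 to -52 in Gzmb. The GENCODE model of Fgl2 starts 31 bases upstream of the RefSeq start, so there the match falls just inside the first exon. The GENCODE start of Gzmb lies 74 bases downstream of the RefSeq start, so its match is farther from that start. A match of letters is a description of the sequence and not a binding site.

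The 9 genes fell into 3 levels of abundance. Nt5e, Penk and Fgl2 were the most abundant, at 76.5, 52.9 and 46.8 CPM (counts per 1000000 UMIs summed over cells). Gzmb, Entpd1 and Ebi3 followed at 17.6, 16.7 and 14.8 CPM, and their intervals overlapped one another. Tgfb1, Areg and Il10 had 5, 4 and 4 UMIs in the whole library. The Fgl2 level was 28.8 CPM (21.9 to 37.3) without the cells with markers of other types. The order by number of cells was different, since Penk outranked Fgl2 by level but was seen in fewer cells.

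Nt5e, on chromosome 9 from 88327197 to 88372092 (plus strand), was the most widely seen. It had 165 UMIs in 150 cells (7.30%, 6.21 to 8.51), a level of 76.5 CPM (65.3 to 89.1). Of those cells 92% had 1 UMI, 9 had 2 and 3 had 3, so its highest cell held 1.82% of its UMIs. Its UMIs per positive cell, 1.10, were close to the median of 1.06 among the 2838 genes with a total between 0.5 and 2 times its own. Entpd1, the enzyme one step before it, on chromosome 19 from 40612366 to 40741602 (plus strand), had 36 UMIs in 35 cells (1.70%, 1.19 to 2.36) at 16.7 CPM (11.7 to 23.1). No cell had more than 2 Entpd1 UMIs, so both ectoenzymes were spread thinly over cells.

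Penk was the opposite. On chromosome 4 from 4133531 to 4138819 (minus strand), it was seen in only 33 cells (1.61%, 1.11 to 2.25), at 52.9 CPM (43.6 to 63.5). Of the 33 cells 17 had 1 UMI, 7 had 2, 3 had 3 and 2 had 4. The remaining 4 cells had 5, 8, 17 and 36. The highest cell alone held 31.6% of all Penk UMIs, and the 10 highest held 74.6%. At 3.45 UMIs per positive cell Penk stood far above the median of 1.04 among 3588 genes of like total, of which 0.0836% reached its value. The cell with 36 Penk UMIs had 1311 UMIs in all, so enkephalin precursor mRNA made up 27460 CPM of it. It also had 4 UMIs of Foxp3 and 1 of Maf, and no UMI of Klrg1 or Icos.

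Fgl2 and Gzmb were also concentrated, though less. Fgl2, on chromosome 5 from 21372642 to 21378374 (plus strand), was seen in 59 cells (2.87%, 2.19 to 3.69), at 46.8 CPM (38.2 to 56.9). Among its cells 36 had 1 UMI, 12 had 2 and 11 had 3 or more, with 6 as the most. Gzmb, on chromosome 14 from 56258838 to 56262260 (minus strand), had 38 UMIs in 20 cells (0.973%, 0.595 to 1.499), 17.6 CPM (12.5 to 24.2). Its cells had 1 UMI in 12 cases, 2 in 3, 3 in 3, 4 in 1 and 7 in 1, so the highest cell held 18.4% of the total. UMIs per positive cell were 1.71 for Fgl2 and 1.90 for Gzmb, and 0.591% and 0.576% of genes of like total reached these values. Without the cells with markers of other types Fgl2 was seen in 42 cells (2.18%, 1.58 to 2.94) at 1.38 UMIs per positive cell, none with more than 3, so its highest cells were among those left out. For Gzmb 1.69 UMIs per positive cell remained over 16 cells.

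**Figure D1:**
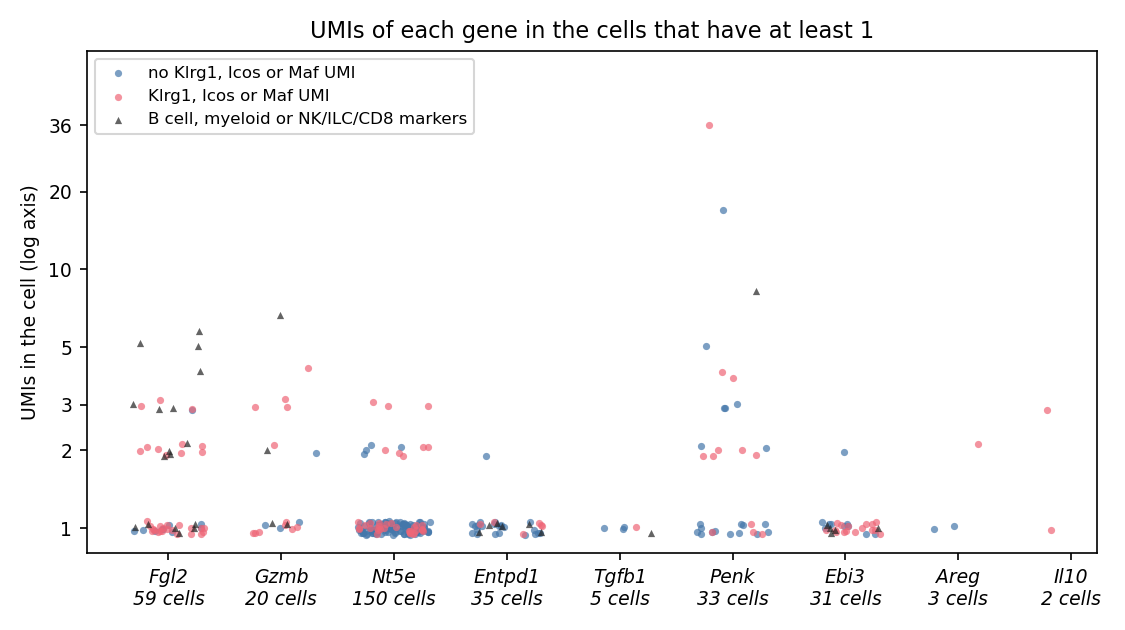
UMIs of each of the 9 genes in every kept cell that had at least 1 (log axis, points spread sideways and slightly up and down so that they can be told apart), colored by a UMI of Klrg1, Icos or Maf, with black triangles for cells with markers of other cell types. Penk reached 36 UMIs in a cell, while no cell had more than 3 for Nt5e or 2 for Entpd1 and Ebi3.

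The cytokine genes had few UMIs. Ebi3, on chromosome 17 from 55952640 to 55957022 (plus strand), had 32 UMIs in 31 cells (1.51%, 1.03 to 2.13), 14.8 CPM (10.2 to 20.9). Il12a, which pairs with Ebi3 in interleukin 35, had no UMI, and 0 UMIs leave room for at most 0.146% of cells having one. Tgfb1, on chromosome 7 from 25687002 to 25705077 (plus strand), had 1 UMI in each of 5 cells (0.243%, 0.0790 to 0.567). By contrast Lrrc32, which encodes GARP, the surface protein that holds latent TGF-beta, was seen in 10.4% of cells. Whether Tgfb1 and Lrrc32 were captured and mapped equally was not tested.

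Il10, on chromosome 1 from 131019845 to 131024974 (plus strand), had 3 UMIs in 1 cell and 1 in another. Both cells had UMIs of Icos and Maf, and the one with 3 also had an Ebi3 UMI and a Foxp3 UMI. The other Il10 cell held 1 Il10, 2 Areg and 3 Fgl2 UMIs beside 1 Klrg1, 6 Icos and 2 Maf UMIs, out of 1553. Areg, on chromosome 5 from 91139599 to 91148432 (plus strand), had 4 UMIs in 3 cells, and the 2 other Areg cells had 1 Areg UMI each, both with Nt5e UMIs. At these counts nothing more can be read from Tgfb1, Areg or Il10.

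Shares in the cells with B cell markers give a background, since free RNA in droplets leaves UMIs in cells that do not express a gene. In those 91 cells (median 910 UMIs) Fgl2 had a UMI in 2.20% (0.267 to 7.71), Ebi3 in 3.30% (0.685 to 9.33) and Entpd1 in 1.10% (0.0278 to 5.97). Gzmb, Nt5e, Tgfb1, Penk, Areg and Il10 had none, which allows up to 3.30% each. Among 91 cells no background under 3.30% could be shown, and every gene but Nt5e had a lower share than that over all cells. For those genes the comparison thus cannot tell whether they stood above background. Nt5e, at 7.30% (6.21 to 8.51), was above the 3.30%.

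Where a cell had a UMI of Klrg1, Icos or Maf, most of these genes were higher. Such cells made up 13.2% of all (2.34% with Klrg1, 8.71% with Icos and 6.13% with Maf), and 1784 cells had none of the 3. Median depths were close, 1011 and 970 UMIs. Of the 6 genes with at least 20 UMIs and at least 3 expected in the smaller set, 5 were at least 1.5-fold higher in the marker-positive cells, Fgl2, Gzmb, Nt5e, Penk and Ebi3. Over all 7699 genes measured the same way 17.8% were at least 1.5-fold higher and 12.2% at least 1.5-fold lower.

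Gzmb had the highest ratio of the 6 genes, though its interval overlapped that of Fgl2 without cells with markers of other types, and Fgl2 was higher with a minimum of 1000 UMIs per cell (37.4 against 31.2). Gzmb had 31 UMIs in the marker-positive cells and 7 in the 1784 others, 99.1 against 3.797 CPM, a ratio of 26.1 (11.3 to 70.2). Gzmb UMIs were seen in 14 marker-positive cells (5.17%) and 6 others (0.336%). Without the cells with markers of other types the ratio was 25.5 (9.44 to 86.3), and thinned to 500 UMIs per cell it was 13.4. The marker-positive share (2.85 to 8.52) was not separated from the 3.30% that 0 cells allow in cells with B cell markers. Those cells were too few to set a lower limit.

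Fgl2 was next. It had 54 and 47 UMIs, 172.6 against 25.5 CPM, a ratio of 6.77 (4.49 to 10.2), and was seen in 36 marker-positive cells (13.3%, 9.48 to 17.9) against 23 others (1.29%, 0.819 to 1.93). The marker-positive share was above that in cells with B cell markers. Leaving out the cells with markers of other types gave a ratio of 22.3 (11.6 to 46.1), from 46 and 12 UMIs. Among the 42 Fgl2 cells that then remained, 32 (76.2%, 60.5 to 87.9) had a UMI of Klrg1, Icos or Maf.

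Fgl2 followed the number of these markers in a cell. It was seen in 8.46% (5.004 to 13.2) of the cells with 1 of the 3 genes, in 22.4% (12.5 to 35.3) of the 58 with 2, and in 6 of the 12 with all 3. Each marker alone gave the same direction: Fgl2 had a UMI in 37.5% of the 48 Klrg1 cells, 13.4% of the Icos cells and 15.1% of the Maf cells. The level ratios were 14.6 (9.19 to 22.7), 4.80 (3.09 to 7.33) and 4.93 (3.05 to 7.76), and without the cells with markers of other types 26.7, 10.9 and 10.1. In the Klrg1 cells only 2.84 Fgl2 UMIs were expected, under the minimum of 3 for a measured gene. Thinned to 500 UMIs per cell the level ratios were 10.6, 2.67 (0.936 to 6.25) and 3.52. The median depth of the cells was 970 UMIs with no marker and no higher with 1 marker. It was 1068.5 with 2 and 1301 with 3. Depth thus did not rise from no marker to 1, where the Fgl2 share went from 1.29% to 8.46%. It did rise with 2 and 3 markers, and the part of depth in the shares was not tested. Thinned to 500 UMIs per cell, Fgl2 was seen in 7.38% of the cells with any marker and in 0.953% of those without.

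Ebi3 split its 32 UMIs evenly, 16 in each set, which gave 51.1 against 8.68 CPM, a ratio of 5.89 (2.76 to 12.6). The Ebi3 share was 5.90% (3.41 to 9.41) of marker-positive cells and 0.841% of the others. The former was not separated from the share in cells with B cell markers, which rested on only 3 cells with Ebi3. Maf was the marker most often found with it, in 12 of the 31 Ebi3 cells (38.7%), while Maf had a UMI in 6.13% of all kept cells. Without the cells with markers of other types the Ebi3 ratio was 8.44 (3.68 to 20.1).

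Nt5e was higher by less, 153.4 against 63.5 CPM, a ratio of 2.42 (1.69 to 3.41). It was seen in 13.7% (9.80 to 18.3) of marker-positive cells and in 6.33% (5.25 to 7.57) of the others, so 75.3% of its 150 cells had none of the 3 markers. The shares with 1 and with 2 markers were 13.4% and 15.5%, which their intervals do not separate. With Klrg1 alone the Nt5e ratio, from 9 UMIs in 6 cells, was 1.99 (0.895 to 3.88), and it was 0.893 without the deepest 2% of cells. With Maf alone it was 2.19 (1.34 to 3.42), and 1.02 when cells were thinned to 500 UMIs.

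No difference in Entpd1 was detectable at this depth. It had 6 and 30 UMIs, 19.2 against 16.3 CPM, a ratio of 1.18 (0.401 to 2.88), and was seen in 2.21% and 1.63% of cells. The interval includes both 1 and the Nt5e ratio. In Icos cells the Entpd1 ratio of 0.532 rested on 2 UMIs (0.0619 to 2.08), and with a minimum of 1000 UMIs per cell it was 1.17. That minimum gave 2.60 for any of the 3 markers.

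Penk differed by marker, and 1 cell decided much of it. Its 58 and 56 UMIs gave 185.4 against 30.4 CPM, a ratio of 6.10 (4.15 to 8.97), but the cell with 36 UMIs was marker-positive through its 1 Maf UMI. Without that cell the ratio was 2.32 (1.35 to 3.87), and the Penk level over all cells 36.2 CPM. For Maf alone the ratio of 10.2 (6.89 to 14.99) became 2.73 (1.38 to 4.996) without it and 1.07 with cells thinned to 500 UMIs, for Klrg1 it was 4.45 (2.29 to 7.95), and for Icos 0.775 (0.345 to 1.53), or 1.18 without that cell. Penk UMIs were seen in 12 marker-positive cells (4.43%) and 21 others (1.18%).

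**Figure D2:**
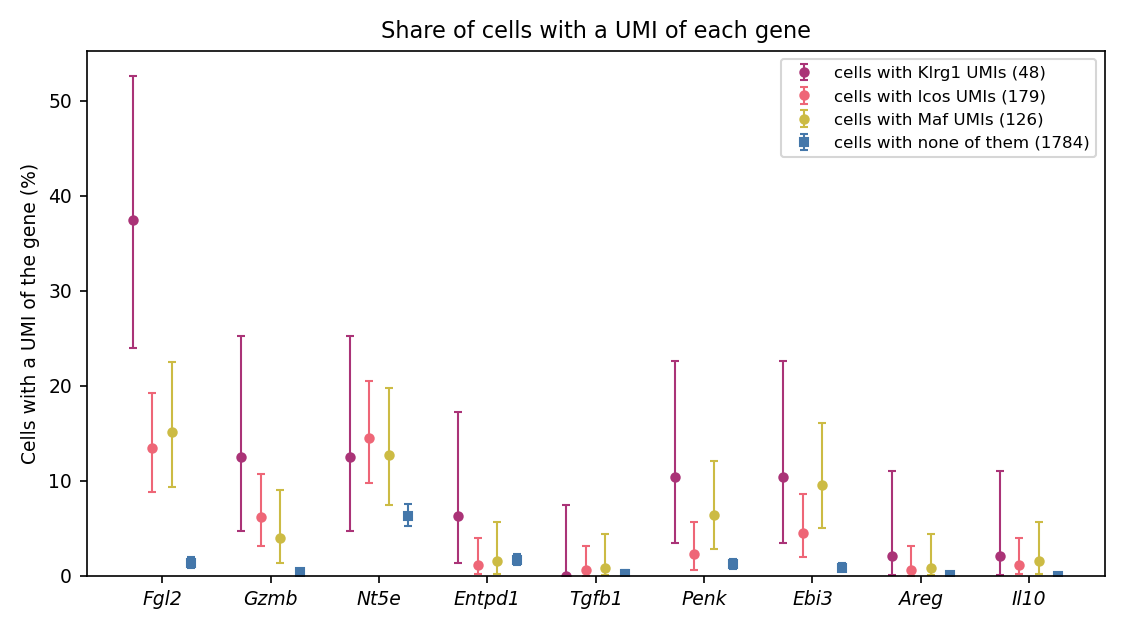
Percent of cells with a UMI of each gene among cells with UMIs of Klrg1, Icos or Maf and among cells with none of the 3; bars are exact binomial 95% intervals and numbers in the key are cells. Fgl2 stood at 37.5% of Klrg1 cells and 1.29% of cells with none of the 3, whereas the Entpd1 intervals overlapped in all sets.

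**Figure D3:**
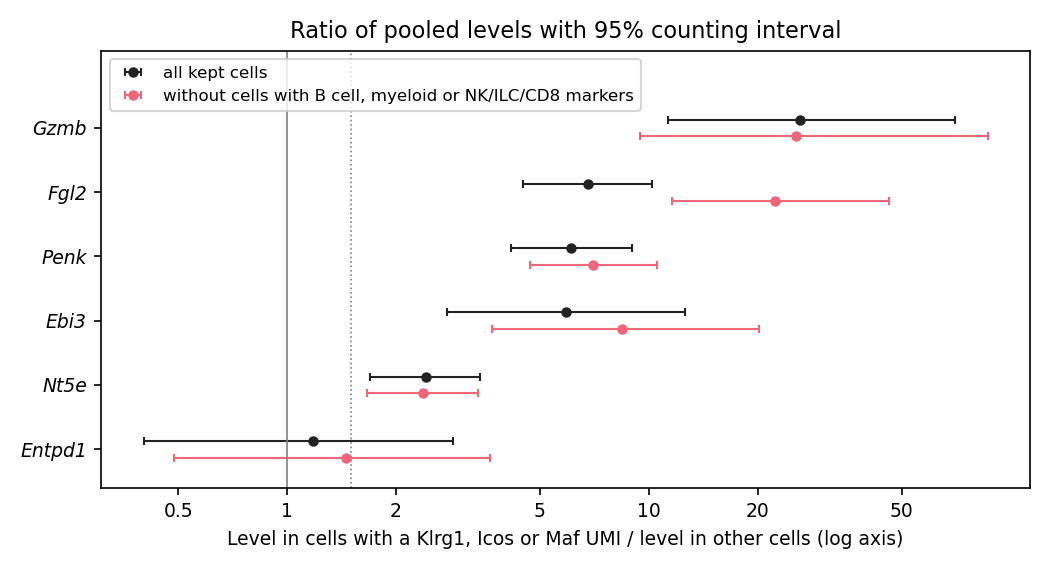
Ratio of the pooled level in cells with a UMI of Klrg1, Icos or Maf to that in other cells, for the 6 genes with enough UMIs (log axis; points are ratios, bars exact conditional 95% intervals, the dotted line is 1.5-fold). Leaving out cells with markers of other types moved Fgl2 from 6.77 to 22.3 and left Gzmb at 25.5.

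Read from single markers, where smaller sets left fewer genes with enough expected UMIs, the count was 4 of 6 for Icos (Fgl2, Gzmb, Nt5e and Ebi3; 17.4% of 6726 genes), 3 of 3 for Maf (Fgl2, Nt5e and Penk; 21.4% of 5711) and 2 of 2 for Klrg1 (Nt5e and Penk; 21.8% of 2934). For cells with at least 2 UMIs over the 3 markers it was 3 of 3 (the same 3 as for Maf; 22.1% of 5228). On the lower side Entpd1 alone passed 1.5-fold, for Icos, where 13.9% of genes did; the shares were 14.6% for Maf, 20.5% for Klrg1 and 14.6% for at least 2 UMIs. Foxp3 itself gave smaller ratios. In the 595 cells with a Foxp3 UMI against the 1460 without, Penk (2.62, 1.79 to 3.86) and Gzmb (1.54, 0.747 to 3.08) were at least 1.5-fold higher, beside 6.15% of 7805 genes, and none of the 6 was 1.5-fold lower, beside 10.2%. The Penk ratio was 1.05 (0.622 to 1.73) without its highest cell, and the Gzmb interval includes 1. Nt5e had a ratio of 0.997 (0.699 to 1.40), Ebi3 of 0.924, Entpd1 of 0.908 and Fgl2 of 0.736, which became 1.53 (0.866 to 2.65) without the cells with markers of other types. Penk was seen in 17 Foxp3 cells (2.86%) and 16 others (1.10%).

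A large part of Fgl2 lay in cells with myeloid markers. Of its UMIs, 41 (40.6%) were in cells with myeloid markers, where Fgl2 had a UMI in 16 of 39 cells (41.03%, 25.6 to 57.9). The 3 cells with the most Fgl2, with 6, 5 and 5 UMIs, had 35, 24 and 66 UMIs of myeloid markers and none of Klrg1, Icos, Maf or Foxp3. Among the 16 cells S100a8 and S100a9, granule proteins of neutrophils and monocytes, were each seen in 12, while Foxp3, Cd3e and Cd4 were seen in none. Klrg1 was seen in 2 of them, Icos in 1 and Maf in 2.

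The other genes differed in this respect. Gzmb had 11 of its 38 UMIs in 4 cells with markers of other types, of which 3 had Ncr1, an NK cell receptor, and none had Foxp3. The cell with 7 Gzmb UMIs had 33 UMIs of myeloid markers beside 5 of Klrg1, 3 of Icos and 1 of Maf, and its 2510 UMIs were more than in 98.5% of kept cells. Entpd1 had 6 of 36 UMIs in cells with myeloid markers, seen in 15.4% (5.86 to 30.5) of them, and Ebi3 had 5 of 32 in cells with markers of any other type. Penk had 7.02%, all in 1 cell with NK, ILC or CD8 T cell markers. Nt5e had none in all these cells, so at most 2.33% of them could have one, against 7.79% (6.63 to 9.08) of the rest.

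Pairs of these genes were then counted in the same cells. Of 36 possible pairs, 17 were seen together in at least 1 cell, 7 in at least 4 cells, and 19 in none. The pair of Fgl2 and Gzmb was closest among those 7: 9 of the 20 Gzmb cells (45%, 23.1 to 68.5) had an Fgl2 UMI, against 2.46% (1.83 to 3.23) of cells without Gzmb, and 15.3% of the Fgl2 cells had Gzmb. The Gzmb level was 48.7-fold (24.2 to 101.9) higher in cells with Fgl2. All 9 cells had a UMI of Klrg1, Icos or Maf, 6 of them of Klrg1 and 7 of Icos, and 4 had Foxp3. They were deeper than most, with a median of 1507 UMIs. Without the cells with markers of other types 7 of the 9 remained and the ratio was 44.2 (19.3 to 103.3). Thinned to 500 UMIs per cell, it was 16.8.

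Nt5e and Penk formed a second pair, with different company. They shared 11 cells, 33.3% (17.96 to 51.8) of the Penk cells, against 6.87% (5.81 to 8.07) of cells without Penk, and 7.33% of the Nt5e cells. The Penk level was 3.14-fold (1.91 to 4.97) higher in Nt5e cells. It was 5.23-fold (3.09 to 8.60) without the highest Penk cell, which lacked Nt5e, and 0.991 with a minimum of 1000 UMIs per cell. Of the 11 cells 7 had Foxp3 and 4 a UMI of Klrg1, Icos or Maf, and their median depth was 912 UMIs. Gzmb and Penk, in 20 and 33 cells, were never seen together, but at equal levels only 1.498 Penk UMIs would fall in the Gzmb cells, too few to show a difference.

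The remaining pairs were looser or rested on other cells. Fgl2 and Nt5e shared 11 cells, 18.6% of the Fgl2 cells and 7.33% of the Nt5e cells, 9 of them with a UMI of Klrg1, Icos or Maf. Fgl2 and Entpd1 shared 8 cells, but 4 of these had markers of other types, and the Entpd1 ratio of 8.12 was 1.78 with a minimum of 1000 UMIs per cell. Fgl2 and Penk, Fgl2 and Ebi3, and the successive enzymes Entpd1 and Nt5e shared 4 cells each. For the 2 enzymes the Entpd1 level in Nt5e cells was 1.47-fold (0.378 to 4.15) that in the others. With that interval neither an excess nor a lack of joint detection was detectable at this depth.

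**Figure D4:**
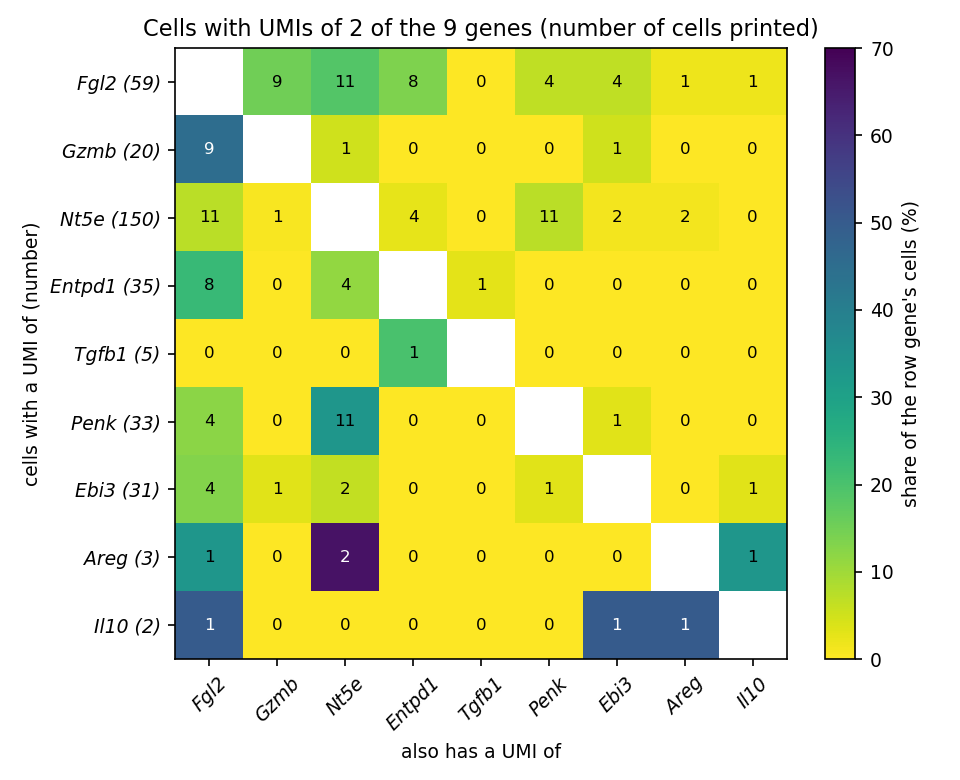
Number of cells with UMIs of both genes (printed) and, as color, the percent of the row gene's cells that also had a UMI of the column gene; numbers beside the row names are cells. Gzmb cells shared Fgl2 in 9 of 20 cases, Penk cells shared Nt5e in 11 of 33, and Gzmb and Penk shared none.

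Cells with more than 1 of the 9 genes were few, 53 (2.58%), and 29 of them (54.7%, 40.4 to 68.4) had a UMI of Klrg1, Icos or Maf. That share was 10.1% (8.78 to 11.6) in the 1775 cells with none of the 9 genes and 27.3% (21.6 to 33.6) in those with 1. All 5 cells with 3 of the genes were marker-positive. Median depths were 966 UMIs with none, 1024 with 1 and 986 with more.

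By likeness of pattern, cells with Fgl2 and with Nt5e could be compared with all other genes. Among 5871 genes seen in at least 40 cells, the 5 with the highest lower limit of the ratio between Fgl2 cells and others were Hist1h2ao (49.2), S100a6 (30.1), Klrg1 (28.4), S100a4 (14.3) and Csf3r (16.9). Without the cells with markers of other types Csf3r, a receptor of granulocytes, gave its place to Icos (11.5). For Nt5e the ratios were smaller: Hist1h2ao (12.2), Nrn1 (4.08), H2afx (3.92), Klrg1 (3.29) and Mcm6 (2.74). Without those cells S100a6 (2.84) and Fgl2 (3.804) took the places of Klrg1 and Mcm6. The histone gene Hist1h2ao was seen in only 5 Fgl2 cells and 6 Nt5e cells.

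UMIs were also summed over fixed lists of genes. The effector Treg list was taken without Klrg1, Icos and Maf, which had already been used, and holds none of the 9 genes. It was 5.86-fold (5.34 to 6.42) higher in Fgl2 cells and 6.17-fold (5.40 to 7.02) in Gzmb cells. It was 2.22-fold (1.85 to 2.65) higher in Ebi3 cells, 1.98-fold (1.62 to 2.40) in Penk cells and 1.49-fold (1.33 to 1.66) in Nt5e cells, and 1.24 (0.958 to 1.58) in Entpd1 cells. These ratios were 6.36 for Fgl2 and 5.75 for Gzmb without the cells with markers of other types.

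Markers of other types moved with several of the genes. The myeloid list was 17.02-fold higher in Fgl2 cells and 8.999-fold in Entpd1 cells, and the NK, ILC and CD8 T cell list 18.5-fold higher in Gzmb cells. Of 12 myeloid markers Ly86 was at 0 in the Fgl2 cells and Lyz2 in the Entpd1 cells, and of 11 NK, ILC and CD8 markers Cd8a and Xcl1 in the Gzmb cells. The B cell and myeloid lists were 3.53-fold and 3.51-fold higher in Ebi3 cells, where Ebf1 and Pax5 were at 0 of 14 B cell markers. Without the cells named for those markers the myeloid ratios were 1.44 (0.955 to 2.08) for Fgl2 and 0.621 (0.249 to 1.29) for Entpd1, and the NK, ILC and CD8 ratio for Gzmb 1.91 (0.390 to 5.71). For Ebi3 they were 1.82 (0.490 to 4.77) and 1.88 (1.16 to 2.90). In Nt5e cells the B cell list was at 0.0552 and the myeloid list at 0.381, and without those cells at 1.25 and 1.06. The NK, ILC and CD8 list was 2.95-fold higher in Penk cells and 4.42-fold (2.07 to 8.40) without those cells.

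**Figure D5:**
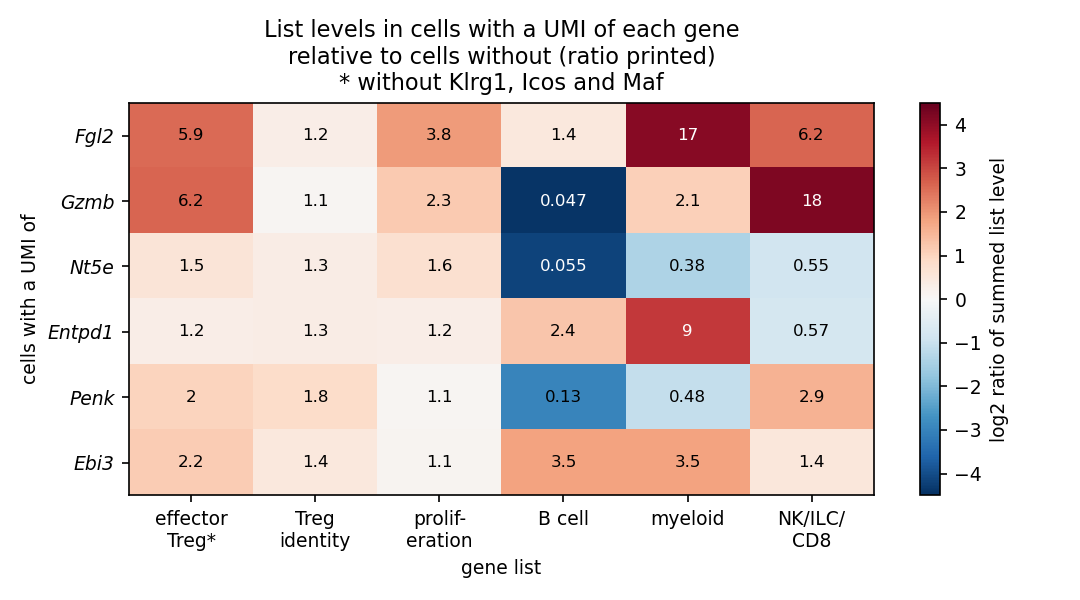
Summed level of 6 gene lists in cells with a UMI of each of 6 genes relative to cells without, printed as a ratio and colored by its log2. The effector list is without Klrg1, Icos and Maf; Fgl2 and Gzmb cells had it 5.86-fold and 6.17-fold higher, and Entpd1 cells the myeloid list 8.999-fold higher.

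For the pathway lists, counts in marker-positive against other cells are read beside the 17.8% of all genes that were higher and the 12.2% that were lower. In the adenosine list 3 of 9 measured genes passed 1.5-fold upward and 0 downward, with a median log2 ratio of 0.31 beside 0.11 over all genes measured. They were Nt5e, the adenosine receptor Adora2a (2.09, 0.948 to 4.27) and Pnp (1.77, 0.982 to 3.03), a purine nucleoside phosphorylase, the last 2 with intervals that include 1. The lowest was Slc29a1 (0.794), a nucleoside transporter. Without Nt5e and Entpd1, already counted above, 2 of 7 were higher and 0 lower (median 0.31).

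Around TGF-beta 2 of 13 measured genes were higher and none lower (median 0.14), no more than the share over all genes. These were Tgif1 (2.29), a corepressor, and Smad3 (1.86), a signal transducer. The receptor Tgfbr1 (1.47) and the inhibitor Smad7 (0.671) were the next highest and the lowest, both within 1.5-fold. Around interleukins 10 and 35, 4 of 12 measured genes were higher and none lower (median 0.38): Ebi3, Prdm1 (5.47), which encodes the transcription factor Blimp-1, Il10ra (4.05), a receptor chain for interleukin 10, and the kinase Tyk2 (2.06). Stat3 was lowest, at 0.793. Without Ebi3, already counted above, 3 of 11 were higher and 0 lower (median 0.34).

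Of 11 granule genes measured, 4 were higher and 1 lower (median 0.23), namely Gzmb, Gzma (10.6), Srgn (2.04), the granule proteoglycan, Serpinb9 (1.96, 0.856 to 4.13), a granzyme B inhibitor, and on the lower side Serpinb6b (0.655, 0.169 to 1.83). The intervals of both serpins include 1, and 1 of 11 lower is near the 12.2% of all genes. Without Gzmb, already counted above, 3 of 10 were higher and 1 lower (median 0.18). Gzma had 67 UMIs in only 8 cells, and Prf1, which encodes perforin, had 4 UMIs in all. The NK, ILC and CD8 list summed to 399.5 CPM in the marker-positive cells and 102.5 in the others, the myeloid list to 1144 and 948.2, and the B cell list to 268.5 and 1696.3. All 11 NK, ILC and CD8 markers had UMIs in both sets. Of 10 granule genes measured without the cells with markers of other types, 3 were higher and 2 lower.

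Among repair and peptide genes, 4 of 6 measured were higher and 1 lower (median 1.60). Fgl2 and Penk, already counted above, were among the 4, and without them 2 of 4 were higher and 1 lower (median 0.59). The higher genes besides them were Il18r1 (4.51), the interleukin 18 receptor, and Adam17 (2.04), the protease that releases amphiregulin. Igfbp4 was lowest (0.244). All 14 measured genes of the effector list, Klrg1, Icos and Maf not counted, were higher (median 2.19), led by the chemokine receptor Ccr2 (45.2), S100a4 (23.8) and S100a6 (15.7), with Gata3 (1.53) lowest; without the cells with markers of other types it was 13 of 14. In the Treg identity list 3 of 10 were higher, beside 17.8% of all genes, and 1 lower, beside 12.2% (median 0.29): Ctla4 (3.74), Ikzf2 (1.82) and Tnfrsf18 (1.73) against Gpr83 (0.550). Foxp3 itself was at 1.07. The lists were drawn up with results of these data known, so their direction is not independent evidence.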

How the data were processed

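The authors deposited 1 table of UMI counts per gene and cell, whole numbers with no normalization, per the labels' protocols from inDrops libraries sequenced on a NextSeq 500. The submitters' processing notes name TopHat2, SAMtools and the mm10 build; their roles, versions and the counting annotation are not given in the sources used here. Each sample is 1 cell of 1 library. Cells with at least 500 UMIs were kept and doublets were kept. Levels are pooled CPM, with each molecule counted once from its 3′ end, so no scaling by gene length was made. Whether capture and mapping were equal between genes was not tested, so the order of genes by level is an order of counts. Intervals at 95% are exact Poisson, exact binomial (Clopper-Pearson) and, for ratios, exact conditional; they cover counting error only. For ratios against 0 UMIs, 3 UMIs per set of cells were taken as the limit. A gene was measured with at least 20 UMIs and 3 expected in the smaller set, and called at 1.5-fold.

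Named are the 9 genes, Klrg1, Icos, Maf and Foxp3, in each list the 3 measured genes with the highest ratio and the 1 with the lowest, and for genes in at least 40 cells the 5 most alike; others were named after their values were seen. The genes and lists were chosen with earlier results of these data known. Coordinates are from GENCODE on GRCm38. The ratio step was tested on simulated counts of 7702 genes for the comparison of cells with a UMI of Klrg1, Icos or Maf with the rest: 87.0% of 100 genes changed 2-fold and 100% of 100 changed 4-fold were called, and 8.45% of unchanged genes. Overlapping opposite-strand genes of Fgl2 (Ccdc146) and Ebi3 (Gm16712) had no UMI. Genes that overlap Entpd1 and Icos on the same strand, and Penk and Maf on the opposite strand, had no row, so they could not be checked. Alternatives were another minimum depth, thinning to 500 UMIs, other marker sets and folds, ribosomal genes out of the total, and leaving out cells. Python 3.11.15, numpy 2.4.6, pandas 2.3.3 and SciPy 1.17.1 were used. A list of resting Treg genes is not reported here.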

Additional observations from a re-analysis of the deposited data

Results flagged for a closer look

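The cells under 500 UMIs, 8.22% of the table, entered no comparison. They held 9 Nt5e UMIs in 9 cells, more than the 3 that a count of 0 allows. That is 127.3 CPM (58.2 to 241.7), and its interval includes the 76.5 CPM of the kept cells. Fgl2 and Entpd1 had 3 UMIs each there, Penk 2, and the other 5 genes none.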

How the results depend on the processing

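No paired analysis was possible because there is 1 library. The count of 5 genes at least 1.5-fold higher in marker-positive cells was 5 with minimums of 300 and 1000 UMIs, without cells with markers of other types, without the deepest 2% of cells, with ribosomal protein genes left out of the total, without each gene's highest cell and at 2-fold, 6 with no minimum of UMIs, and 4 for Icos cells. It was 3 when cells were thinned to 500 UMIs, 2 for Klrg1 cells, 3 for Maf cells and 3 for cells with at least 2 UMIs over the 3 markers. In these last 4 settings only 3, 2, 3 and 3 of the genes had enough UMIs, and each was higher. Of ratios past 1.5-fold, 3 turned direction: the Nt5e ratio for Klrg1 cells became 0.893 without the deepest 2% of cells, the Entpd1 ratio for Icos cells 1.17 with a minimum of 1000 UMIs, and the Penk ratio for Nt5e cells 0.991 with that minimum; the cause was not tested. Ratios nearer 1 also crossed it: Fgl2 for Foxp3 (0.736 to 1.53), Penk for Icos (0.775 to 1.24), Entpd1 for Maf (0.795 to 1.76), and for Foxp3 also Nt5e (0.997 to 1.098), Entpd1 (0.908 to 1.23) and Ebi3 (0.924 to 1.08). The Fgl2 ratio for any marker ranged from 4.89 (thinned) to 37.4 (minimum of 1000 UMIs), that of Gzmb from 13.4 to 31.2, Nt5e from 1.94 to 2.50, Ebi3 from 3.58 to 8.44, Penk from 2.28 to 7.01 and Entpd1 from 1.07 to 2.60. Thinning left fewer genes measured, which limits the list counts: of the interleukin 10 and 35 list 0 were then higher and of the cell cycle list 0. The 95% intervals and the limit of 3 UMIs cover counting error in this 1 library.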

Other observations

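Genes of the cell cycle were also higher in cells with a UMI of Klrg1, Icos or Maf. Of 8 measured genes 6 passed 1.5-fold upward and 0 downward, beside 17.8% and 12.2% of all genes, with a median log2 ratio of 2.26. They included Mki67 (16.8), Rrm2 (11.8) and Top2a (9.57), with Tubb5 lowest (1.10). Mki67 was seen in 14 cells and Rrm2 in 15. Without the deepest 2% of cells 3 of the list were measured and 1 was higher. Summed, this list was 3.77-fold (3.23 to 4.38) higher in Fgl2 cells, 2.26-fold (1.67 to 3.01) in Gzmb cells and 1.63-fold (1.40 to 1.89) in Nt5e cells. It was close to level in Penk cells (1.07, 0.721 to 1.54) and Ebi3 cells (1.10, 0.754 to 1.55). In Entpd1 cells the ratio was 1.23 (0.850 to 1.73). Il1rl1, the interleukin 33 receptor named here after its values were seen, had 12 of its 13 UMIs in the marker-positive cells.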
